A study of Mus musculus with 4 samples.

Results

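The genes described here are 10 mouse genes for enzymes of glycolysis, in general forms and in the forms that skeletal muscle is rich in: Hk1, Hk2, Pfkm, Pfkp, Aldoa, Pgam2, Eno1, Eno3, Pkm and Ldha. They were picked by gene symbol from a table of 56691 genes, in which 11 rows carry one of these symbols, because Aldoa stands on 2 rows. RNA-seq had been performed on 4 sarcomas, 2 from mice given arsenic trioxide (ATO 1 and ATO 2) and 2 from mice given PBS (PBS 1 and PBS 2), and the question was how ATO-treated and untreated sarcomas differ in gene expression. ATO is an arsenic compound, which was given in the drinking water and was studied as a drug that refolds mutant p53. The mice were p53R282W/+ (W/+) in both groups: the R282W change, numbered by the human residue, had been put into the germ line on 1 allele, so that tumor and host cells inherited it, and the other germ-line allele was wild-type. The mutation was therefore shared by both groups, and no tumor from mice without it was part of the comparison. Whether the sarcomas kept the wild-type allele is not stated. The sample labels call the tissue sarcoma tumor and give neither the age of the mice nor the type of sarcoma, although angiosarcomas, soft-tissue sarcomas and osteosarcomas all arise in W/+ mice. They also give a growth protocol for cultured cells treated with dexamethasone, isobutylmethylxanthine and insulin, and how that protocol relates to the tumors is not stated. Nothing states that the 2 sarcomas of a group came from separate mice, so that a p-value measures only the spread between these samples.

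Glycolysis splits glucose into pyruvate in the cytosol and yields ATP without oxygen. Most of its steps can be carried out by several isozymes, that is, enzymes from different genes with the same reaction, and tissues differ in which of them they use. Embryonic, dividing and tumor cells mostly use Hk1 or Hk2, Pfkp or Pfkl, Pgam1 and Eno1, whereas mature skeletal muscle fibres are rich in Pfkm, Aldoa, Pgam2 and Eno3, which serve the burst of ATP that contraction needs. Many tumors turn much of their glucose into lactate even with oxygen present, with high Hk2, Pkm and Ldha.

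The sequences just upstream of a muscle form and of its general counterpart are shown for enolase and phosphoglycerate mutase, since these are the pairs whose relative levels differed most between the groups. Each is the RefSeq window of 250 bases before to 50 bases after the transcription start, in build GRCm38.p6, written 5′ to 3′ on the strand of the gene. Capitals mark matches to the E-box CANNTG, the letters that myogenic and other basic helix-loop-helix factors bind and the same on either strand, and to the MEF2 motif, which was searched on both strands. The windows lie at chr11:70656926-70657225 on the plus strand for Eno3, at chr4:150236458-150236757 on the plus strand for Eno1, at chr11:5803747-5804046 on the minus strand for Pgam2 and at chr19:41911621-41911920 on the plus strand for Pgam1.
Eno3: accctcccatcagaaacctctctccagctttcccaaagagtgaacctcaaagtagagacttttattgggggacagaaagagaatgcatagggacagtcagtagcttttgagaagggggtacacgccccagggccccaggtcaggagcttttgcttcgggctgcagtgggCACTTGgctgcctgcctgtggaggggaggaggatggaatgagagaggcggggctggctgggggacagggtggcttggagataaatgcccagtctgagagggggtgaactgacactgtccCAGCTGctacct
Eno1: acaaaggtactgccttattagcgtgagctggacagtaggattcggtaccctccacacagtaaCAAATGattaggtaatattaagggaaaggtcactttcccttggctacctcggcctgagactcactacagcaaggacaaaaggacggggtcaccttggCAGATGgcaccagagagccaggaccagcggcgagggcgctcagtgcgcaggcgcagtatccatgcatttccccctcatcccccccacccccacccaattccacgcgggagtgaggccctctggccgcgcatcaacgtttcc
Pgam2: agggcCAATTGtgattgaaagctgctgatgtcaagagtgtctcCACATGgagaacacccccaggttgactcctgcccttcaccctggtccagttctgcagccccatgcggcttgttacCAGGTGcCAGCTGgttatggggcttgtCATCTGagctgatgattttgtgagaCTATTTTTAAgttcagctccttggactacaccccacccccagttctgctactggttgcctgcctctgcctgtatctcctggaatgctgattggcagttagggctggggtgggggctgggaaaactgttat
Pgam1: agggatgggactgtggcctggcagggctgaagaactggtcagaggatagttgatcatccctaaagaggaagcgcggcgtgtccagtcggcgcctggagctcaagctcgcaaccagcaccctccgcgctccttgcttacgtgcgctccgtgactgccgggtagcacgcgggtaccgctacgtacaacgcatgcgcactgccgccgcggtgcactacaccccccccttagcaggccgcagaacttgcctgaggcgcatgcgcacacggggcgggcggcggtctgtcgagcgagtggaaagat
The Pgam2 window held 5 E-box matches and 1 MEF2 match, CTATTTTTAA, which begins 80 bases before the start (position -80). The Eno3 window held 2 E-box matches, CACTTG at position -81 and CAGCTG at position 39, and no MEF2 match. The Eno1 window held 2 E-box matches and the Pgam1 window held 0. E-boxes are common letters: 72.3% of the 32851 RefSeq windows of this length hold at least 1, while 3.19% hold a MEF2 match. A match describes the letters only, and binding was not measured. All 10 genes had a RefSeq window.

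Sequencing depth was similar in the 4 sarcomas, with total counts between 15259695 and 18134000. The mitochondrial share of the counts was 14.7% in ATO 2, where it was 1.98% to 2.59% in PBS 1, PBS 2 and ATO 1. Markers of mature skeletal muscle fibres differed far more between the sarcomas than depth did. The summed level of 12 such markers, among them Acta1, Ckm and Myh4, was 7.97 FPKM (counts scaled to exon length and to the total count) in PBS 1, 174 in PBS 2, 19092 in ATO 1 and 1316 in ATO 2, and all 12 were higher in both ATO sarcomas than in both PBS sarcomas. Of all genes that passed a filter on low counts, 12.8% had both ATO sarcomas above both PBS sarcomas in FPKM. In PBS 1, 1 of the 12 markers, Tnnc2, was at 0 counts, and the limit that a count of 0 allows there is 3 counts. Markers of heart muscle summed to between 1.15 and 2.25 FPKM. The 6 adipocyte markers summed to 0.17, 1.28, 210 and 1048 FPKM in the same order, with Lep at 0 counts in both PBS sarcomas, and the 3 brown fat markers to 0.07, 0.10, 1.53 and 2087 FPKM. Ucp1, the uncoupling protein that defines brown fat, had 37084 counts in ATO 2, and at most 3 in each of the others. Markers of dividing cells summed to 69.8, 44.4, 79.4 and 6.19 FPKM. Among them only Mki67 was highest in ATO 1, at 45.4 FPKM, while Top2a, Ccnb1 and Cdk1 were highest in PBS 1. Each of these markers was lowest in ATO 2. The sum of 5 osteoblast markers, at 12.7, 5.13, 465 and 4.69 FPKM, set ATO 1 apart, and Sp7, the factor that defines osteoblasts, was at 0 counts in PBS 1 and ATO 2. The erythroid sum (269, 17823, 9773 and 1001 FPKM) and the endothelial sum (106, 892, 76.1 and 153 FPKM) were highest in PBS 2. Leukocyte markers summed to between 140 and 299 FPKM, and mesenchymal markers to between 1188 and 4879 FPKM. Of the 6 mesenchymal markers, Vim, Pdgfrb and Thy1 were lower in both ATO sarcomas than in both PBS sarcomas. In FPKM this order held for 29.6% of all genes that passed the filter. The groups overlapped for Col1a1, Col1a2 and Col3a1. The part that muscle, fat or other cells in the samples have in the results that follow was not tested. In bulk tissue, fewer cells of a type and less RNA per cell cannot be told apart.

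The counts of all genes that passed a filter on low counts were compared between the ATO and PBS sarcomas with edgeR's quasi-likelihood test, with trimmed-mean (TMM) normalization and Benjamini-Hochberg adjustment. All 10 enzyme genes passed the filter. None of them passed an adjusted p of 0.05, and none of the 17188 genes tested did (0%), where edgeR's smallest adjusted p was 0.570 and the unadjusted p was under 0.05 for 1463 genes. The enzyme genes that stood highest in ATO over PBS were Eno3, Pgam2, Pfkm, Hk2 and Aldoa, each with an unadjusted p under 0.05, which 5.44% of all genes reached in that direction. None of the 10 reached it in the other direction, against 3.07% of all genes. In these 5 of the 10 genes both ATO sarcomas lay above both PBS sarcomas, in FPKM and in TMM-normalized CPM. Such CPM are counts scaled to a total count that TMM adjusts for each sarcoma. Both ATO sarcomas lay above both PBS sarcomas for 12.8% of all genes in FPKM and 19.7% in CPM. None of the 10 had both ATO sarcomas below both PBS sarcomas, against 20.2% of all genes in CPM and 29.6% in FPKM. The fitted level was higher in ATO for 8 of the 10 and 49.2% of all genes, and the median log2 fold change was 1.54 over the 10 genes and -0.016 over all genes. The sarcoma ATO 2 decides part of this: without it, 5 of the 10 had a higher fitted level and the median was 0.48. With DESeq2 in place of edgeR 4 of the 10 passed the threshold, all higher in ATO, where 3.26% of the genes tested passed it in that direction and 0.87% in the other. With edgeR and no filter on low counts 2 of the 10, Eno3 and Pgam2, passed it, both higher in ATO, against 1.47% of all genes in that direction and 0.282% in the other.

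**Figure D1:**
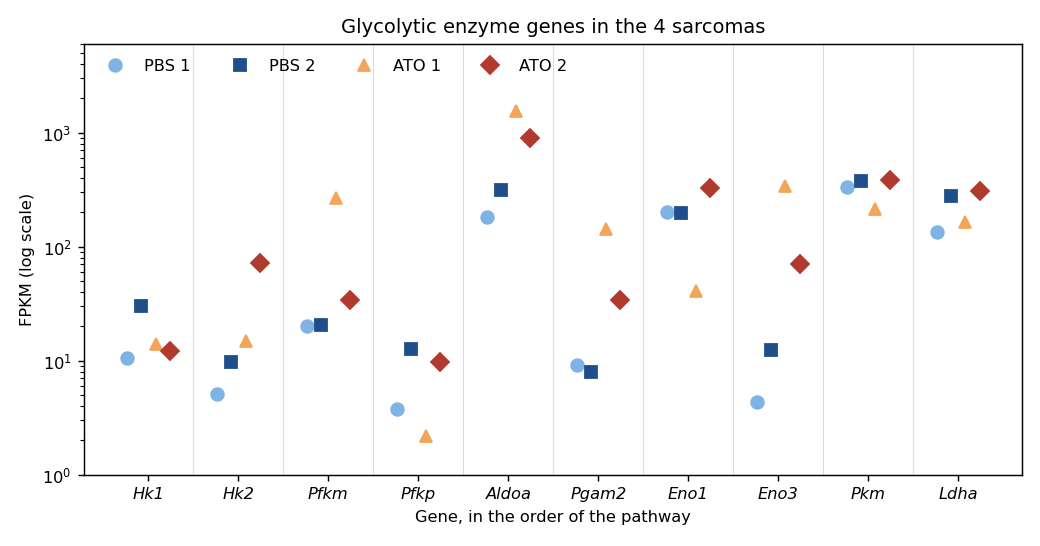
Level of each of the 10 enzyme genes in FPKM on a log axis, in the order of the pathway, with 1 point per sarcoma (circle, PBS 1; square, PBS 2; triangle, ATO 1; diamond, ATO 2). Both ATO sarcomas lie above both PBS sarcomas for Hk2, Pfkm, Aldoa, Pgam2 and Eno3, and the groups overlap for Hk1, Pfkp, Eno1, Pkm and Ldha.

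Hexokinases trap glucose in the cell as glucose 6-phosphate. Hk1 is the form found in most tissues, and its gene lies on chromosome 10 (62268855 to 62379908, minus strand, GRCm38). The level of Hk1 was 10.6 FPKM in PBS 1, 30.3 in PBS 2, 13.9 in ATO 1 and 12.2 in ATO 2. PBS 2 thus stood apart, and both ATO sarcomas lay between the PBS sarcomas. For Hk1 in ATO over PBS, edgeR gave -0.37 in log2 (SE 0.61, n = 2 per group, adjusted p = 0.891), and without PBS 2 it was 0.56.

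Hk2 is the insulin-responsive form of muscle and fat and is raised in many tumors. It lies on chromosome 6 (82725025 to 82774454, minus strand). Its level was 5.09 FPKM in PBS 1, 9.78 in PBS 2, 14.9 in ATO 1 and 71.3 in ATO 2. ATO 2 was by far the highest, and ATO 1 was 1.52 times PBS 2. In edgeR the log2 fold change came to 2.91 (SE 1.00, adjusted p = 0.570), and it was 1.14 without ATO 2. That sarcoma also had the highest brown fat sum and the highest mitochondrial share of the counts. Whether these bear on the level of Hk2 was not tested. The DESeq2 adjusted p for Hk2 was 0.0570, the lowest over the alternatives, whose highest was 0.872, in edgeR without PBS 1. Of the summed FPKM of Hk1, Hk2, Hk3 and Hkdc1, Hk2 made up 26.6% in PBS 1, 19.4% in PBS 2, 41.4% in ATO 1 and 69.0% in ATO 2, and Hk1 55.5%, 59.9%, 38.8% and 11.8%.

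Phosphofructokinase commits glucose to glycolysis, and its subunits come from Pfkm (muscle), Pfkl (liver) and Pfkp (platelet). Pfkm lies on chromosome 15 (98092589 to 98132451, plus strand) and overlaps Senp1 on the other strand. The level of Pfkm was 20.1 FPKM in PBS 1, 20.8 in PBS 2, 268 in ATO 1 and 34.3 in ATO 2. The PBS sarcomas were nearly equal, ATO 2 was 1.65 times PBS 2, and ATO 1 was 12.9 times PBS 2. The fitted difference was 3.05 in log2 (SE 1.00, edgeR adjusted p = 0.570), and without ATO 1 it was 1.15. Over the alternatives the adjusted p for Pfkm ranged from 0.0369 with DESeq2 to 0.872 in edgeR without PBS 1.

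Pfkp lies on chromosome 13 (6579768 to 6648777, minus strand). Its level was 3.79 FPKM in PBS 1, 12.7 in PBS 2, 2.19 in ATO 1 and 9.83 in ATO 2. The groups overlapped, and the lowest value was that of ATO 1, where Pfkm was highest. For Pfkp edgeR gave a log2 fold change of -0.07 (SE 1.00, adjusted p = 0.989), and its sign changed without ATO 1 (0.67) and without PBS 2 (1.02). Pfkm made up 97.6% of the phosphofructokinase FPKM in ATO 1, against 53.9% in PBS 1, 33.2% in PBS 2 and 30.5% in ATO 2. In ATO 2 the liver form Pfkl led with 60.8%.

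Aldolase splits the phosphorylated hexose into trioses. Aldoa is its form in muscle and most other tissues, and its main row is the gene on chromosome 7 at 126795234 to 126800751 (minus strand), which overlaps Fam57b on the other strand. Aldoa stood at 182 FPKM in PBS 1, 317 in PBS 2, 1563 in ATO 1 and 907 in ATO 2. It ranked 164th, 79th, 13th and 28th by FPKM among all genes of the respective sarcoma, and both ATO sarcomas lay above both PBS sarcomas. The fitted difference of 2.55 in log2 (SE 0.79, edgeR adjusted p = 0.570) stayed between 2.21 and 2.99 when each sarcoma was left out in turn, the narrowest such range among the 5 genes whose groups did not overlap. Over the alternatives its adjusted p ranged from 0.00372 with DESeq2 to 0.881 in edgeR without PBS 1. The other row with the symbol Aldoa, an upstream gene model on the same strand (126800790 to 126809108), had 14, 14, 111 and 12 counts. Aldoa made up at least 99.5% of the summed FPKM of Aldoa and Aldoc in every sarcoma.

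Phosphoglycerate mutase moves the phosphate of 3-phosphoglycerate, with Pgam2 as the muscle form and Pgam1 as the general form. Pgam2 lies on chromosome 11 (5801640 to 5803733, minus strand) and overlaps no other annotated gene. Its level was 9.27 FPKM in PBS 1, 8.02 in PBS 2, 142 in ATO 1 and 34.1 in ATO 2. The PBS sarcomas were close to each other, and ATO 1 and ATO 2 were 17.7 and 4.25 times PBS 2. Its fitted difference was 3.54 in log2 (SE 0.74, edgeR adjusted p = 0.570) and lay between 2.38 and 4.17 when each sarcoma was left out in turn. Its unadjusted p of 0.00581 was the smallest of the 10 genes in that edgeR fit, and over the alternatives the adjusted p ranged from 0.00124 with DESeq2 to 0.872 in edgeR without PBS 1. Pgam1 had 138, 114, 27.0 and 163 FPKM in PBS 1, PBS 2, ATO 1 and ATO 2. It was thus lowest in ATO 1, where Pgam2 was highest, and Pgam2 made up 6.31%, 6.58%, 84.0% and 17.3% of the mutase FPKM. The family's summed FPKM moved less, from 122 in PBS 2 to 197 in ATO 2.

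Enolase makes phosphoenolpyruvate. Eno3, the muscle form, lies on chromosome 11 (70657202 to 70662513, plus strand) and Eno1, the general form, on chromosome 4 (150236721 to 150248879, plus strand). Eno3 stood at 4.38 FPKM in PBS 1, 12.5 in PBS 2, 343 in ATO 1 and 70.0 in ATO 2. Eno3 was higher in both ATO sarcomas than in both PBS sarcomas, by 5.58-fold even between the nearest pair, ATO 2 and PBS 2. At 4.80 in log2 (SE 1.04, edgeR adjusted p = 0.570), Eno3 had the largest fitted difference of the 10 genes. This difference lay between 3.46 and 5.73 when each sarcoma was left out in turn, and over the alternatives the adjusted p ranged from 4.77e-05 with DESeq2 to 0.872 in edgeR without PBS 1.

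Eno1 stood at 201 FPKM in PBS 1, 198 in PBS 2, 40.6 in ATO 1 and 327 in ATO 2. The PBS sarcomas were nearly equal, ATO 1 lay far below them and ATO 2 above them. The fitted difference of 0.27 in log2 (SE 1.14, edgeR adjusted p = 0.961) therefore averages opposite differences: it was 1.12 without ATO 1 and -2.17 without ATO 2, and it was -0.12 with scaling to total counts. Eno3 took 2.06% of the enolase FPKM in PBS 1, 5.87% in PBS 2, 89.2% in ATO 1 and 17.5% in ATO 2. The summed enolase FPKM was 212 and 214 in the PBS sarcomas and 385 and 400 in the ATO sarcomas, so the ATO sarcomas had nearly equal FPKM sums from different forms. This near-equality holds for FPKM, which are scaled to total counts. Mitochondrial genes supplied 14.7% of these for ATO 2 against 2.59% for ATO 1. Reads of Eno1 may be shared with its retrogene copy Eno1b, which had 250, 218, 57 and 294 counts, so the level of both is uncertain to that extent.

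**Figure D2:**
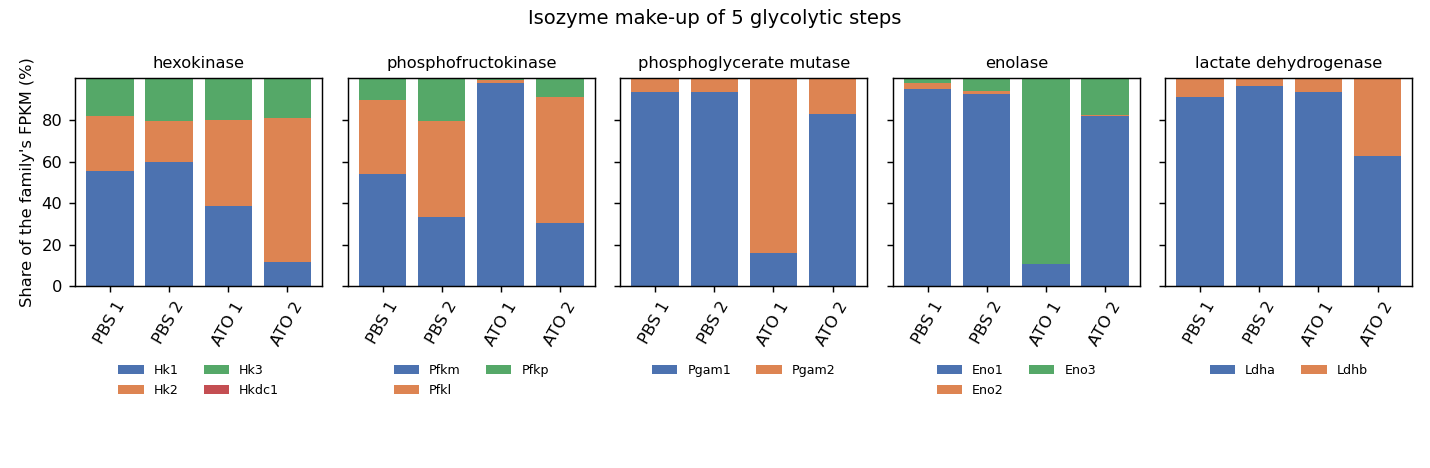
Stacked bars give the percentage of the summed FPKM of the genes shown for each enzyme family that comes from each gene, for 5 steps and the 4 sarcomas. In ATO 1, Pfkm, Pgam2 and Eno3 make up 97.6%, 84.0% and 89.2% of their families, whereas Hk2, Pfkl and Ldhb have their largest shares in ATO 2.

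Pyruvate kinase makes pyruvate and ATP, and Pkm gives both the M1 form of muscle and the M2 form of dividing cells by splicing, which counts per gene cannot tell apart. Pkm lies on chromosome 9 (59656368 to 59679375, plus strand). Its level was 337 FPKM in PBS 1, 377 in PBS 2, 215 in ATO 1 and 384 in ATO 2. PBS 2 and ATO 2 were nearly equal, and ATO 1 was lowest. The fitted difference was 0.07 in log2 (SE 0.73, edgeR adjusted p = 0.985), and its sign turned with scaling to total counts (-0.25). Pklr, the liver and red cell form, had 0, 1, 193 and 0 counts, so that Pkm made up at least 98.5% of the pyruvate kinase FPKM in every sarcoma.

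Lactate dehydrogenase interconverts pyruvate and lactate. Ldha, whose subunit dominates in fast muscle and many tumors, lies on chromosome 7 (46841475 to 46855627, plus strand). Its level was 135 FPKM in PBS 1, 281 in PBS 2, 166 in ATO 1 and 309 in ATO 2. The difference within each group was as large as that between the groups, with PBS 2 at 2.08 times PBS 1. For Ldha edgeR gave a difference of 0.52 in log2 (SE 0.73, adjusted p = 0.867), and it was -0.18 without ATO 2. Ldhb, the form of heart and oxidative tissue, stood at 13.0, 10.6, 11.5 and 184 FPKM in PBS 1, PBS 2, ATO 1 and ATO 2. It was high in ATO 2 alone, where it made up 37.3% of the lactate dehydrogenase FPKM against 3.62% to 8.78% elsewhere, and its fitted difference was 3.46 in log2 (SE 1.41, edgeR adjusted p = 0.593), or 0.094 without ATO 2.

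A ratio of 2 genes within a sarcoma does not depend on how the libraries are scaled, and 6 such ratios of FPKM, 5 of isozymes and 1 of Pkm to Ldha, were compared with a two-sided exact permutation test, which with 2 sarcomas per group cannot go below p = 0.333. The ratio of Eno3 to Eno1 was 0.0218 in PBS 1, 0.0633 in PBS 2, 8.47 in ATO 1 and 0.214 in ATO 2. Both ATO sarcomas lay above both PBS sarcomas, and the difference of the mean log2 ratios was 5.18 (exact p = 0.333, adjusted over the 6 ratios 0.500), or 2.53 without ATO 1 and 7.83 without ATO 2. Eno3 nevertheless exceeded Eno1 in ATO 1 only. The ratio of Pgam2 to Pgam1 was 0.0673 in PBS 1, 0.0705 in PBS 2, 5.27 in ATO 1 and 0.210 in ATO 2. The order was the same as for enolase, with a difference of 3.93 in log2 (exact p = 0.333, adjusted 0.500), or 1.61 without ATO 1 and 6.26 without ATO 2. The ratio of Hk2 to Hk1 was 0.480, 0.323, 1.07 and 5.84, a difference of 2.67 in log2 (exact p = 0.333, adjusted 0.500), and here ATO 2 was highest, with a difference of 1.44 without it. The ratio of Pfkm to Pfkp was 5.31, 1.64, 123 and 3.49, so that ATO 2 lay between the PBS sarcomas (difference 2.81, exact p = 0.667, adjusted 0.667, or 0.24 without ATO 1 and 5.38 without ATO 2). The ratio of Ldhb to Ldha also overlapped between the groups (difference 1.75, exact p = 0.667, adjusted 0.667), and its difference was 0.20 without ATO 2 and 3.31 without ATO 1. The ratio of Pkm to Ldha was 2.49, 1.34, 1.30 and 1.24, lower in both ATO sarcomas by a narrow margin over PBS 2 (difference -0.53, exact p = 0.333, adjusted 0.500, or -0.080 without PBS 1 and -0.97 without PBS 2).

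The ATO sarcomas differed from each other in which enzymes were high. In ATO 1 the levels of Pfkm, Eno3 and Pgam2 were 7.83, 4.91 and 4.17 times those in ATO 2 by FPKM, and the summed skeletal muscle markers were 14.5 times as high. In the same comparison Eno1, Pfkp and Hk2 in ATO 1 were 0.124, 0.223 and 0.208 times ATO 2. By CPM, 4 of the 10 genes (Hk2, Pfkm, Pfkp and Eno1) differed over 4-fold between the ATO sarcomas, against 15.2% of all genes. Set against the mean of the PBS sarcomas in CPM, 5 of the 10 genes were higher in both ATO sarcomas, 1 (Hk1) was lower in both, and 4 (Pfkp, Eno1, Pkm and Ldha) were lower in ATO 1 and higher in ATO 2. This split is not particular to them. Of 10 other glycolytic enzymes, 5 were likewise higher in both, 1 was lower in both, and 4 were higher in ATO 2 only. The share of all genes was not computed for this split. Together the 10 genes described here took 0.400% of the counts in PBS 1, 0.539% in PBS 2, 0.825% in ATO 1 and 0.827% in ATO 2. The ATO sarcomas thus gave nearly equal shares of their raw counts to these genes, with a different make-up. This near-equality holds for that measure only. Mitochondrial genes, which are part of the raw counts, supplied 14.7% of them for ATO 2 against 2.59% for ATO 1. Summed by FPKM, the 10 genes stood higher in ATO 1, at 2770, than in ATO 2, at 2160.

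**Figure D3:**
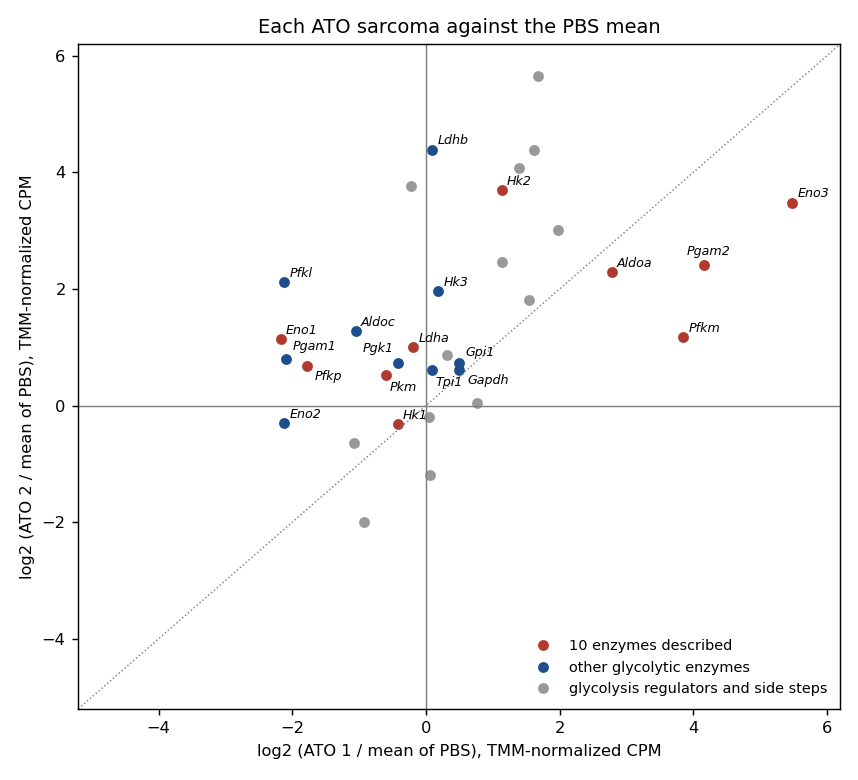
Each point is a gene, placed by the log2 ratio of its TMM-normalized CPM in ATO 1 (x axis) and in ATO 2 (y axis) to the mean of the PBS sarcomas, with the 10 enzyme genes in red, other glycolytic enzymes in blue and regulators in grey. Eno3, Pgam2, Pfkm and Aldoa lie below the dotted line of equality, on the side of ATO 1. The remaining genes in red, Hk2 among them, and all those in blue, Ldhb among them, lie on the side of ATO 2. Gpd1 lies beyond the axes and is not drawn.

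The skeletal muscle sum was highest in ATO 1, followed by ATO 2, PBS 2 and PBS 1. Eno3, Pfkm and Aldoa had the same order in FPKM, as did Bnip3, a gene outside glycolysis. The PBS sarcomas differed 21.8-fold in that sum, while Eno3 differed 2.86-fold between them, Pfkm 1.03-fold and Pgam2 0.865-fold (PBS 2 over PBS 1). The osteoblast sum, too, was highest in ATO 1. Hk2 and Ldhb had their highest values in ATO 2, as the adipocyte and brown fat sums did. So did many other genes of the pathway: Eno1, Pkm, Ldha, Hk3, Pfkl, Aldoc, Tpi1 and Pgam1 were also highest in ATO 2 by FPKM.

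**Figure D4:**
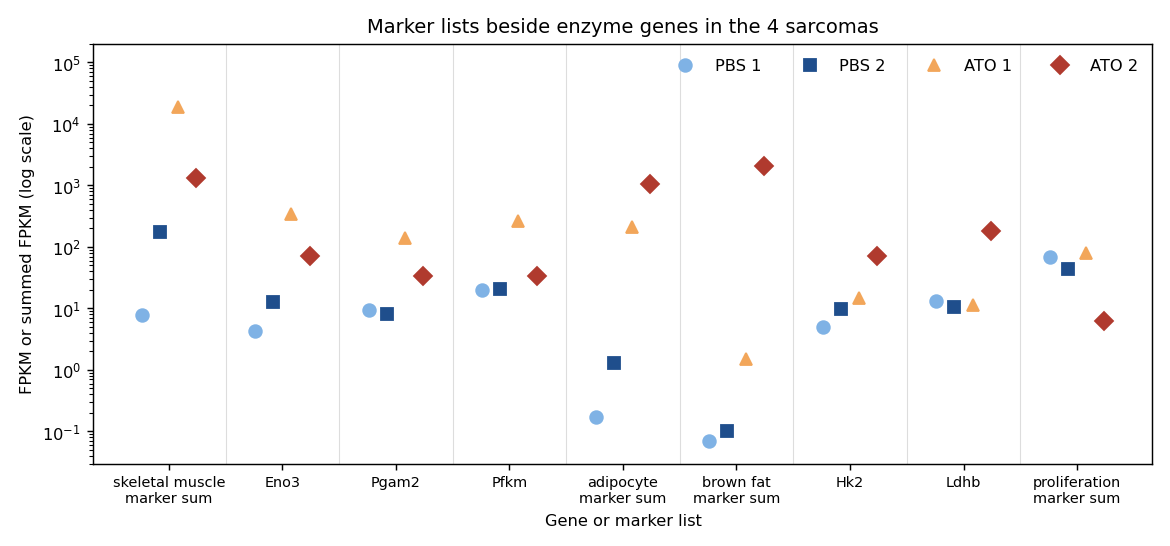
Level of single enzyme genes (FPKM) and summed FPKM of marker lists on a log axis, with 1 point per sarcoma. The skeletal muscle sum, Eno3, Pgam2 and Pfkm are highest in ATO 1, whereas the adipocyte and brown fat sums, Hk2 and Ldhb are highest in ATO 2, where the sum of proliferation markers is lowest at 6.19 FPKM.

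The rest of the pathway was taken from a list of 12 other glycolytic enzymes, of which 10 passed the filter and Hkdc1 and Pklr did not. None of the 10 passed the threshold in edgeR. The fitted level of 8 was higher in ATO, the same number as for the 10 enzyme genes described here, against 49.2% of all genes. The median log2 fold change was 0.54 (0.094 without ATO 2, 1.23 without PBS 2). In edgeR 0 had an unadjusted p under 0.05, which 5.44% of all genes reached higher in ATO and 3.07% lower. Other steps are served by a gene that has no muscle-specific counterpart. Tpi1, which interconverts the trioses, had 124, 151, 134 and 157 FPKM. Gapdh, which oxidizes glyceraldehyde 3-phosphate and is often used as a reference gene, had 26.4, 38.8, 41.9 and 37.3 FPKM. Pgk1, the first ATP-yielding enzyme, had 137, 224, 124 and 223 FPKM, and Gpi1, which turns glucose 6-phosphate into fructose 6-phosphate, had 46.8, 112, 102 and 97.6. For these 4 genes the groups overlapped in FPKM, while for Gapdh both ATO sarcomas lay above both PBS sarcomas in CPM (100, 145, 173 and 188), and the fitted log2 fold changes were between 0.27 and 0.61. Gapdh, Tpi1, Pgam1 and Ldha have processed pseudogenes, which can take part of their reads.

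**Figure D5:**
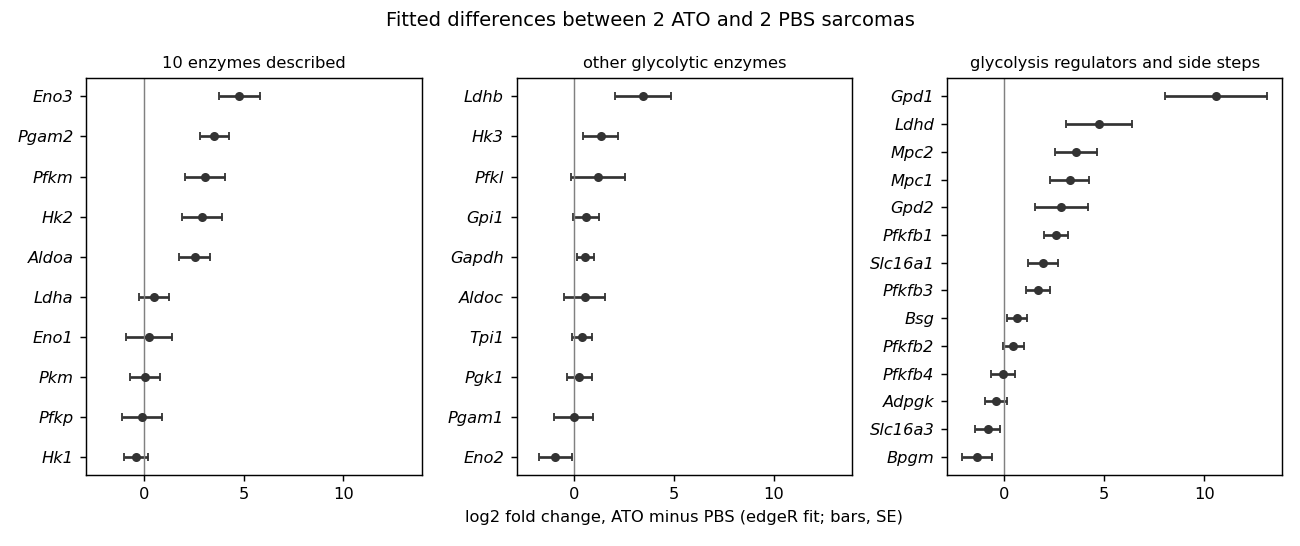
Fitted log2 fold change, ATO minus PBS, with bars of 1 SE from edgeR with 2 sarcomas per group, for the 10 enzyme genes, 10 other glycolytic enzymes and the 14 regulators that passed the filter. Eno3, Pgam2, Pfkm, Hk2 and Aldoa stand between 2.55 and 4.80, while the other 5 enzyme genes lie between -0.37 and 0.52.

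Of 14 genes that regulate glycolysis or lead off from it, all passed the filter and none passed the threshold. The fitted level of 10 was higher in ATO, against 49.2% of all genes, and the median log2 fold change was 1.81 (0.95 without ATO 2). In 8 of the 14 both ATO sarcomas lay above both PBS sarcomas in CPM, against 19.7% of all genes, and 6 had an unadjusted p under 0.05 in edgeR, all higher in ATO, against 5.44% of all genes. Among the kinases that set the level of fructose 2,6-bisphosphate, the activator of phosphofructokinase, Pfkfb1 had 1.08, 1.22, 4.16 and 6.90 FPKM and Pfkfb3 had 9.44, 22.7, 42.6 and 41.6 FPKM in PBS 1, PBS 2, ATO 1 and ATO 2. Both were higher in both ATO sarcomas, with log2 fold changes of 2.58 (SE 0.59) and 1.68 (SE 0.60), each at an edgeR adjusted p of 0.570. The groups overlapped for the kinases Pfkfb2, at 1.97, 1.57, 2.75 and 1.36 FPKM, and Pfkfb4, at 4.56, 13.2, 8.39 and 5.73 FPKM. Pfkfb2 and Pfkfb4 had log2 fold changes of 0.45 and -0.07. Gpd1 diverts triose phosphate to glycerol 3-phosphate, the backbone of fat, and had 0.79, 0.79, 33.7 and 1791 FPKM. It was by far highest in ATO 2, which had the highest sums of fat markers, and edgeR gave a difference of 10.58 in log2 (SE 2.57, adjusted p = 0.570), or 5.54 without ATO 2. The genes of the mitochondrial pyruvate carrier, Mpc1 and Mpc2, had 8.03, 8.87, 20.3 and 106 FPKM and 3.17, 2.26, 7.61 and 42.2 FPKM. Without ATO 2 their fitted differences were 1.40 and 1.62 in log2. They too were highest in ATO 2, where the mitochondrial share of the counts was highest. Slc16a1, a lactate carrier, had 17.8, 6.40, 24.5 and 49.8 FPKM, whereas Slc16a3, the carrier that exports lactate from glycolytic cells, had 17.0, 49.7, 14.4 and 15.8 FPKM. For Slc16a3 the fitted difference was -0.85 in log2 (SE 0.63, edgeR adjusted p = 0.735; 0.10 without PBS 2), with ATO 1 and ATO 2 below both PBS sarcomas in FPKM and overlapping them in CPM.

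Of a list of 8 germ cell forms and retrogene copies, 3 passed the filter, and the germ cell forms Pgk2 and Ldhal6b were listed at 0 in all 4 sarcomas. Genes known to be induced by low oxygen outside glycolysis were listed too: of 6, 5 were in the table under their symbol. The fitted level was higher in ATO for 3 and lower for 2, against 49.2% of all genes higher, and the median log2 fold change was 0.22. Among these Bnip3, a mitophagy receptor, had 24.4, 61.3, 148 and 92.8 FPKM (fitted difference 1.74 in log2, SE 0.61, edgeR adjusted p = 0.570), while Egln3, an oxygen sensor, had 17.0, 72.7, 33.5 and 18.9 FPKM.

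For the 3 muscle forms, the genes outside all lists with the most similar pattern over the 4 sarcomas were found among 13649 genes, by the largest difference between centred log2(CPM + 1) values of the 2 genes in any sarcoma. Nearest to Eno3 were Myh14, Klhl31 and Fmod, with largest differences of 0.19, 0.23 and 0.29. Nearest to Pgam2 were Myoz3, Rragd and Dhrs7c, with 0.11, 0.19 and 0.27. Nearest to Pfkm were Dmd, the dystrophin gene, Asb10 and Stac3, with 0.16, 0.20 and 0.21. Dmd stood at 0.33, 0.36, 5.23 and 0.73 FPKM in PBS 1, PBS 2, ATO 1 and ATO 2, with the PBS sarcomas nearly equal as for Pfkm. With 4 sarcomas such a likeness is a description only.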

How the data were processed

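Expression had been measured by RNA-seq in 2 ATO and 2 PBS sarcomas of W/+ mice, grouped by the treatment in their labels. Per the labels and methods, the authors trimmed reads with cutadapt 1.9.1 after FastQC 0.10.1, aligned them to GRCm38 with HISAT2 2.0.1 and deposited raw read counts per gene made with HTSeq. The strand setting and the handling of multiply aligned reads are not given in the sources used here, so reads of overlapping genes and of near-identical copies may be misassigned. The authors also deposited FPKM, which equal the count divided by exonic size and total count to within 0.005. The labels and the methods name different extraction and library kits. Only 2.83% of the 52073 genes shared with GENCODE M21 (GRCm38) have its positions in the deposited table, so positions were taken from that annotation by gene identifier.

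The test of counts used R 4.3.3 and its package edgeR 4.0.16 (genes kept by filterByExpr; TMM normalization with factors 1.09, 1.11, 1.01 and 0.822 for PBS 1, PBS 2, ATO 1 and ATO 2; quasi-likelihood F-test, two-sided; Benjamini-Hochberg over all 17188 genes tested; threshold 0.05). The biological coefficient of variation was 62.5%. SE is the log2 fold change divided by the root of F. In these libraries 3 counts equal 0.165 to 0.197 CPM, a limit that covers counting error only. Isozyme ratios used FPKM without a pseudocount. Where several genes carry a symbol, the main row was used. As alternatives, DESeq2 1.42.0 was run, and edgeR with DESeq2 size factors, total counts only, no mitochondrial genes, no filter, a replicate block, limma 3.58.1 on log2(FPKM + 1) (mean FPKM 1 or more), and each sarcoma left out. Counting both Aldoa rows was added after seeing the data. The code of the tests was run on simulated counts with a smaller spread than these data. That run does not show how the tests perform at the spread found here. Some genes of the pathway are not reported here and were left out of its list and of the isozyme shares. Genes named were the enzyme genes, the genes of the pathway and marker lists, and the 3 genes nearest in pattern to Eno3, Pgam2 and Pfkm. The enzyme genes and the lists were chosen with earlier results of these data known, so that no count over them is independent support. Tables and figures used matplotlib 3.10.9, pandas 2.3.3 and numpy 2.4.6 under Python 3.11.15.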

Additional observations from a re-analysis of the deposited data

How the results depend on the processing

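DESeq2 called 754 of 18277 genes, 595 (3.26%) higher and 159 (0.87%) lower in ATO. Without a filter edgeR called 541 of 30859, 454 (1.47%) higher and 87 (0.282%) lower, where edgeR with the filter called 0. Against these shares DESeq2 called 4 of the 10 enzyme genes, 0 other glycolytic enzymes and 5 of the 14 regulators. The numbers for edgeR without a filter were 2, 0 and 4, and all of these calls were higher in ATO. Over the fits that left out 1 sarcoma, the number of the 10 genes with a higher level in ATO ranged from 5 to 10 and their median log2 fold change from 0.48 to 2.05. The median ranged from 0.95 to 2.11 for the regulators and from 0.094 to 1.23 for the other enzymes. With both Aldoa rows counted the median of the enzyme genes was 2.29. The direction of Eno1 turned with total counts (-0.12), the replicate block (-0.52) and limma (-0.78), and that of Pkm likewise (-0.25, -0.033 and -0.31). With total counts the median of all genes was -0.28 and with limma -0.23, so values under these settings are relative to a shifted centre. Leaving out 1 sarcoma moved Eno1 between -2.17 and 1.12, Pkm between -0.59 and 0.51, Ldha between -0.18 and 1.12, Pfkp between -1.77 and 1.02 and Hk1 between -0.93 and 0.56. Of 247 alternative values 12 turned direction and 10 counts or medians moved. Another 6, all fold changes of the enzyme genes, passed the threshold that they missed in edgeR with the filter. Smaller changes of a count were not called moved. Thus 6 of the 10 genes were higher in ATO with total counts, the replicate block and limma, against 8 in edgeR with the filter, and this was called the same. The cause of these differences was not tested. The labels number the sarcomas of both groups 1 and 2 without saying that a number pairs them, and deviations of same-numbered sarcomas correlated at -0.02. The replicate block gave 0 calls. With 2 sarcomas per group and this spread, a p above the threshold does not show that levels were equal.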
